A study of Lactuca sativa with 9 samples.

Results

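In mature lettuce leaves, 101 of the 38910 annotated genes were lower in ‘Manatee’ than in 60184 and lower again in ‘Okeechobee’ than in ‘Manatee’. They were selected on their measured values, from 18373 genes that averaged 30 raw counts or more in every genotype. On log2(CPM + 0.5), where CPM is the count of a gene per 1000000 gene counts of its library, the genotype mean had to drop by at least 0.8 from 60184 to ‘Manatee’ and by at least 0.8 from ‘Manatee’ to ‘Okeechobee’, and every ‘Okeechobee’ library had to lie under every 60184 library. A step of 0.8 is a 1.74-fold difference, and both steps together are at least 3.03-fold. Since every contrast between the genotypes was used to choose the genes, their differences are described and not tested.

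The study compared romaine lettuces with different shelf life before harvest. ‘Okeechobee’ is a commercial cultivar with long shelf life (LSL), ‘Manatee’ a commercial cultivar with intermediate shelf life (ISL), and 60184 an experimental breeding line with short shelf life (SSL). RNA came from mature leaves of untreated plants under a 16 h day at 22 °C, and each genotype had 3 replicates, 9 libraries in all. Each shelf life class is 1 genotype, so shelf life and genotype cannot be told apart. The study’s methods describe the leaf taken, the first fully expanded one counted from the centre, for 60184 and ‘Okeechobee’ only, and the ‘Manatee’ libraries are placed by their labels. The study calls its replicates biological and speaks of individuals of a genotype, while the ‘Manatee’ labels only number them, and p-values measure the spread between these libraries.

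Light harvesting antenna proteins bind chlorophyll around both photosystems and are encoded in the nucleus by a large gene family. In Arabidopsis, GLK and GATA transcription factors promote their expression and that of chlorophyll synthesis genes, and nitrate is reduced to ammonium by nitrate reductase in the cytosol and nitrite reductase in the plastid. Leaf senescence, in which chloroplasts are dismantled and their nitrogen is exported, is among the processes that end the shelf life of leafy vegetables.

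The libraries held 24108451 to 32840811 gene counts, and ‘Manatee’ replicate 2 stood apart from the other ‘Manatee’ libraries. It was the lowest ‘Manatee’ library in 89 of the 101 genes (88.1%) and in 63.2% of the 18373 genes considered. With the ‘Okeechobee’ mean of each gene set to 0 and its 60184 mean to 1, the median position over the 101 genes was 0.67 in ‘Manatee’ replicate 1, 0.21 in replicate 2 and 0.60 in replicate 3. Replicate 2 was at or below the highest ‘Okeechobee’ library in 47 genes, replicate 1 in 4 and replicate 3 in 8. TMM scaling, which corrects for differences in RNA composition, moved its median position to 0.30, with 0.66 and 0.60 in replicates 1 and 3, and 83 of the 101 genes still had their lowest ‘Manatee’ value there, against 40.5% of all genes considered under TMM.

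The label of this library was checked on genes that were on in 1 genotype and off in another. Of 25 genes with at least 100 counts in ‘Manatee’ replicates 1 and 3 and at most 3 counts in every ‘Okeechobee’ and 60184 library, 21 had at least 100 counts in ‘Manatee’ replicate 2 and none had 3 or fewer. Of 44 genes with at least 100 counts in every ‘Okeechobee’ library and at most 3 in ‘Manatee’ replicates 1 and 3, the highest count in ‘Manatee’ replicate 2 was 4. Of 76 such genes of 60184, the highest was 2. By these genes the library matched the other ‘Manatee’ libraries and not ‘Okeechobee’.

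**Figure D1:**
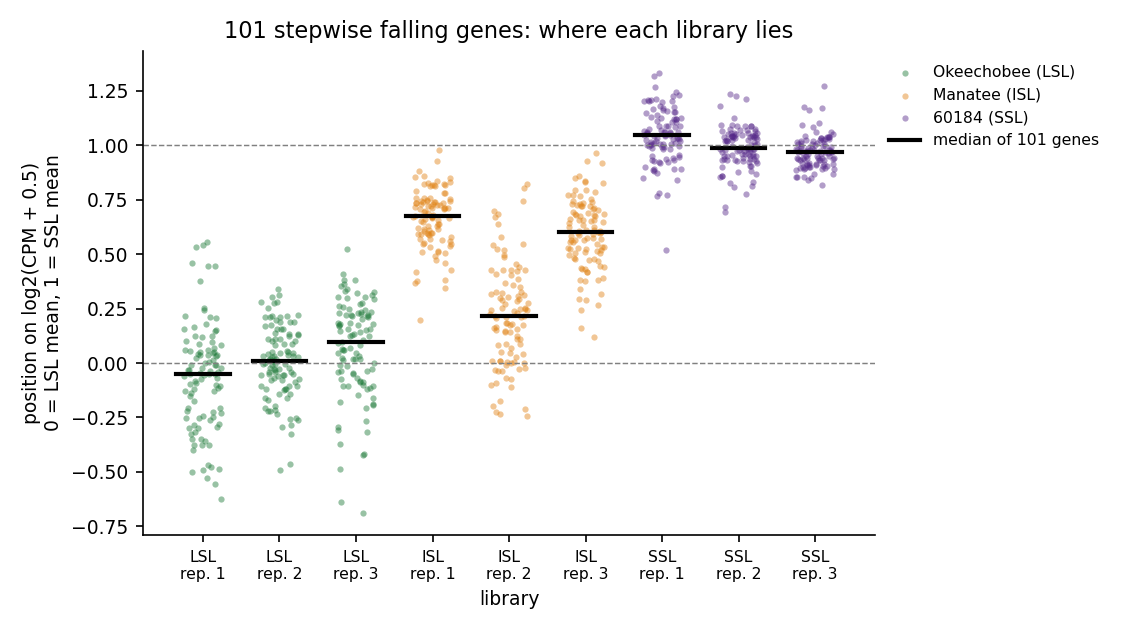
Position of each of the 101 genes (points) in each of the 9 libraries, on the log2(CPM + 0.5) scale, with 0 the ‘Okeechobee’ mean and 1 the 60184 mean of the gene; black lines are medians. ‘Manatee’ replicate 2 has a median of 0.21, against 0.67 and 0.60 in the other ‘Manatee’ libraries.

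Without ‘Manatee’ replicate 2 the rule found 105 genes, of which 46 were among the 101. In 50 genes the drop from 60184 to ‘Manatee’ was then under 0.8, and in 5 genes the drop from ‘Manatee’ to ‘Okeechobee’ was. The membership of the other 55 genes therefore rested on this library. For 45 genes all 3 ‘Manatee’ libraries lay between every ‘Okeechobee’ and every 60184 library. These 45 genes hold a stepwise order in all 9 libraries. The rule had already set the ‘Okeechobee’ libraries under the 60184 libraries, and the share of all genes considered with such an order was not counted. Some of the 45, among them Lsat_1_v5_gn_4_1821 and Lsat_1_v5_gn_7_55280, did not meet the rule without ‘Manatee’ replicate 2.

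Over the 101 genes the median difference was -2.33 for ‘Okeechobee’ against 60184, -1.14 for ‘Manatee’ against 60184 and -1.05 for ‘Okeechobee’ against ‘Manatee’. Over the 18373 genes considered, the medians of the same differences were 0.01, -0.05 and 0.04. Without ‘Manatee’ replicate 2 the 2 steps were unequal, with medians of -0.81 for ‘Manatee’ against 60184 and -1.47 for ‘Okeechobee’ against ‘Manatee’. The differences between ‘Okeechobee’ and 60184 spanned -4.26 to -1.65. In bulk leaf RNA, fewer cells of a type and less RNA per cell cannot be told apart. The share of all gene counts in the 101 genes was 0.173% to 0.281% in ‘Okeechobee’, 0.691%, 0.304% and 0.60% in ‘Manatee’ replicates 1, 2 and 3, and 1.15% to 1.74% in 60184.

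The rule picked 0.550% of the genes considered. The mirror rule, for genes rising by the same steps, picked 183 genes or 0.996%, and without ‘Manatee’ replicate 2 it kept 123 of them. Of 410 genes that were lower in ‘Okeechobee’ than in 60184 by at least 1.6 without overlap, the 101 stepwise genes made up 24.6%. In 149 others ‘Manatee’ lay above ‘Okeechobee’ by less than 0.8, in 46 it lay below ‘Okeechobee’, in 90 it lay below 60184 by less than 0.8 and in 24 it lay above 60184. The ‘Manatee’ mean lay between the other means in 340 of the 410. Without ‘Manatee’ replicate 2, an alternative added after the data were seen, there were 409 such genes, of which 105 were stepwise. In 99 others ‘Manatee’ then lay above ‘Okeechobee’ by less than 0.8, in 25 below ‘Okeechobee’, in 144 below 60184 by less than 0.8 and in 36 above 60184. Which end ‘Manatee’ was nearer to thus changed with this library.

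**Figure D2:**
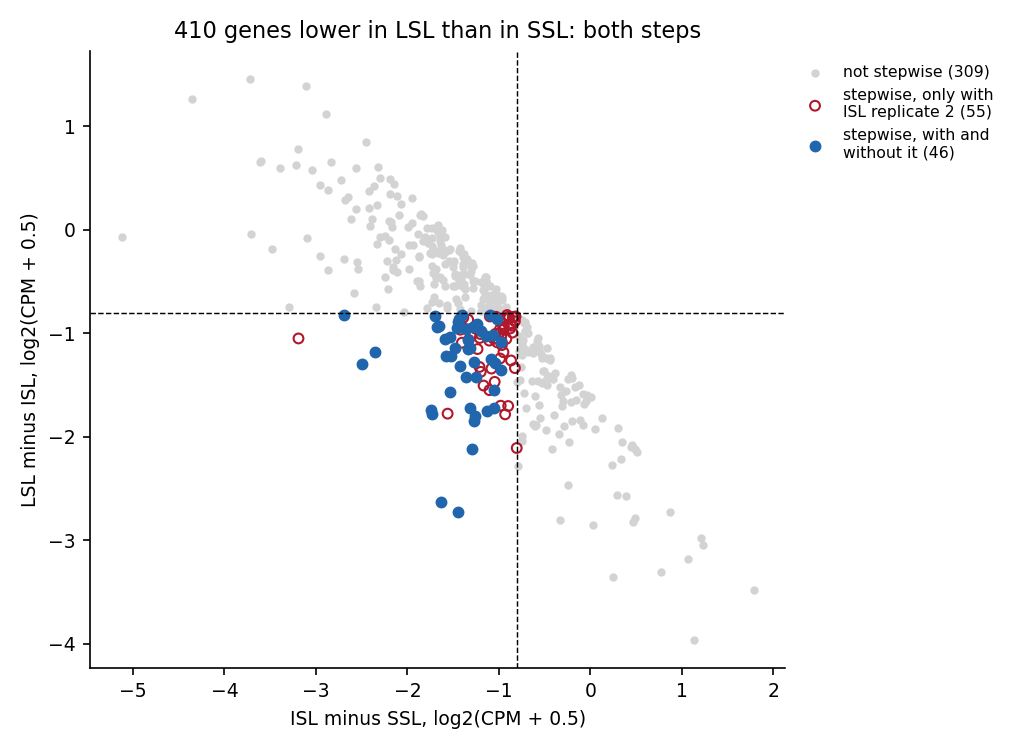
Difference between ‘Manatee’ and 60184 (x axis) and between ‘Okeechobee’ and ‘Manatee’ (y axis) on log2(CPM + 0.5) for the 410 genes lower in ‘Okeechobee’ than in 60184; dashed lines mark the step of 0.8. Filled points are the 46 genes that met the rule with and without ‘Manatee’ replicate 2, open points the 55 that met it only with this library, and grey points the other 309 genes.

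The stepwise rule used the same contrasts, so the following counts of calls follow from the choice of the genes, and nothing is read from their distance to the share over all genes. EdgeR’s quasi-likelihood test with Benjamini-Hochberg adjustment over all tested genes called 100 of the 101 genes lower in ‘Okeechobee’ than in 60184, against 15.3% of all tested genes, and the remaining gene, Lsat_1_v5_gn_7_98121 without a description, had an adjusted p of 0.0594. It called 59 lower in ‘Manatee’ than in 60184, against 8.60% of all tested genes, and 29 lower in ‘Okeechobee’ than in ‘Manatee’, against 3.74%. Without ‘Manatee’ replicate 2 it called 78 and 55 of them at these steps. The median SD within a genotype was 0.51 in ‘Okeechobee’, 0.64 in ‘Manatee’ and 0.22 in 60184 for the 101 genes, and 0.22, 0.24 and 0.18 for all genes considered.

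A function was given for 82 of the 101 genes. These descriptions come from the study’s supplementary tables, which mostly list genes that the study chose from these same samples, and they cover 17.7% of the genes considered. The functional groups below are therefore not independent evidence of direction. Levels are given in CPM, which does not correct for gene length, so values are compared between libraries and not between genes.

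The described genes with the largest smaller step encoded a DUF1677 protein, a cytokinin response factor and a plastid fatty acid desaturase. The DUF1677 gene, Lsat_1_v5_gn_7_58100, had 6.06, 22.6 and 10.3 CPM in the ‘Okeechobee’ libraries, 58.9, 19.9 and 49.4 CPM in the ‘Manatee’ libraries and 137, 125 and 131 CPM in the 60184 libraries. Its differences were -1.74 for ‘Manatee’ against 60184 and -1.74 for ‘Okeechobee’ against ‘Manatee’. The 60184 libraries were close together and far above the rest, while ‘Manatee’ replicate 2 was under ‘Okeechobee’ replicate 2.

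The cytokinin response factor Lsat_1_v5_gn_6_11860, matched to Arabidopsis CRF2 of the AP2/ERF family, had 0.993, 2.57 and 1.08 CPM in ‘Okeechobee’, 11.8, 1.86 and 9.57 CPM in ‘Manatee’ and 22.9, 23.9 and 18.3 CPM in 60184. CRF genes are induced by cytokinin, a hormone that delays leaf senescence. ‘Manatee’ replicate 2 again lay within the ‘Okeechobee’ range, and the other ‘Manatee’ libraries lay between the other genotypes.

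The desaturase Lsat_1_v5_gn_2_58980, matched to Arabidopsis FAD5, which desaturates palmitate on plastid galactolipids, showed the largest overall difference of the 101 genes. It had 11.1, 8.45 and 19.7 CPM in ‘Okeechobee’, 142, 26.4 and 130 CPM in ‘Manatee’ and 196, 277 and 273 CPM in 60184, a difference of -4.26 between ‘Okeechobee’ and 60184. The genotypes did not overlap at either step, and ‘Manatee’ replicate 2 was the lowest of its genotype by far.

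**Figure D3:**
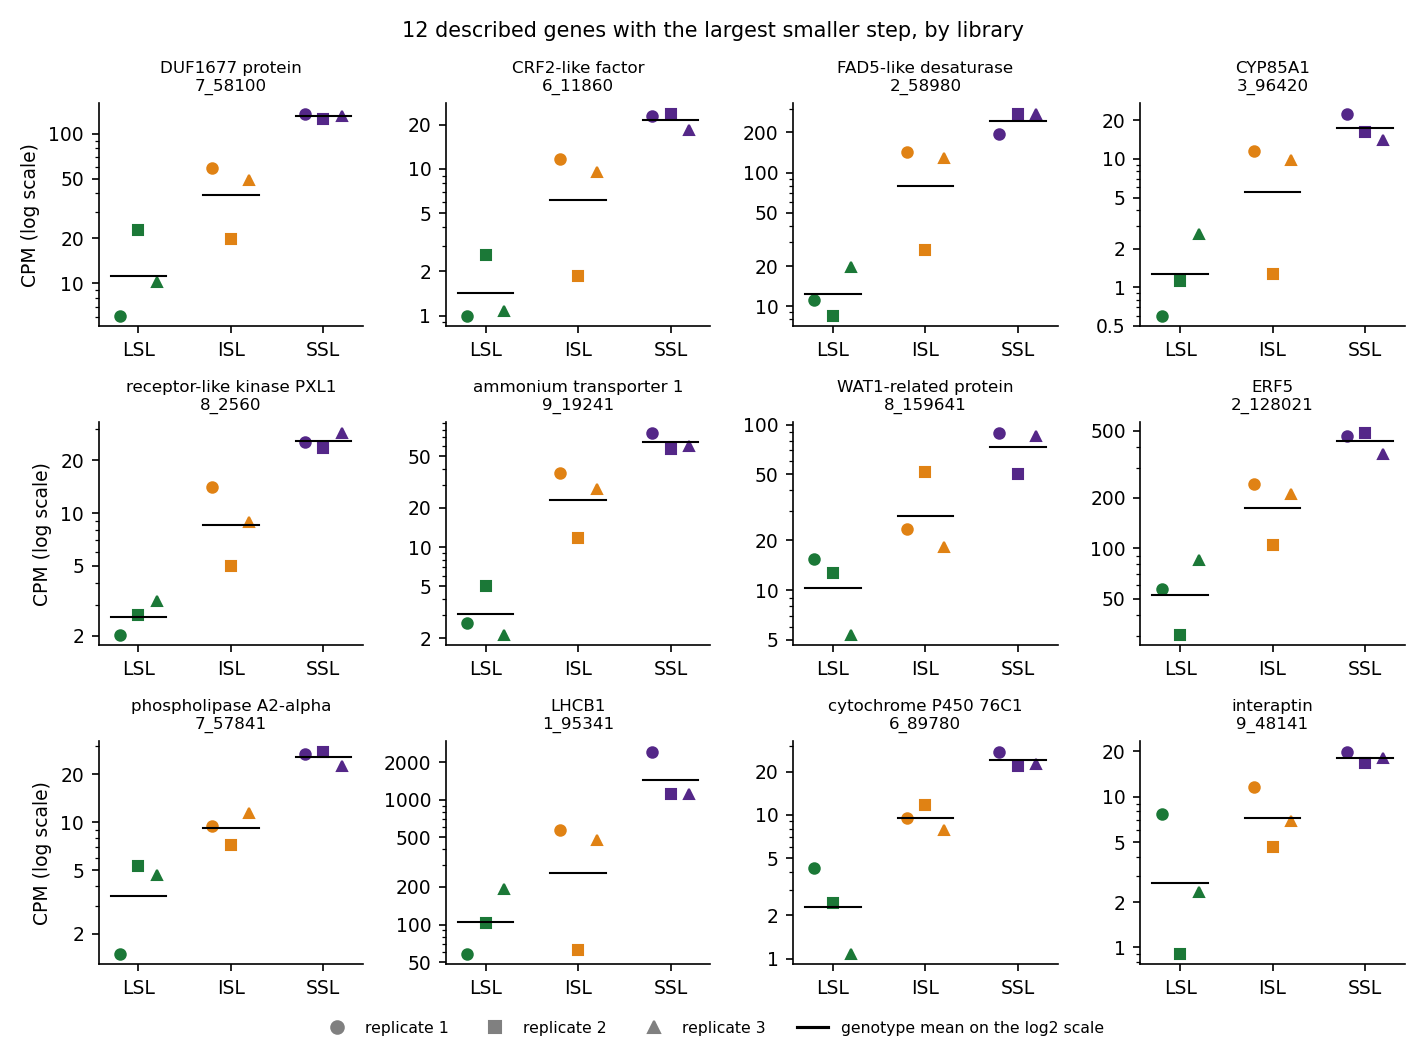
CPM (log axes) in each library for the 12 described genes with the largest smaller step, by genotype; black bars are genotype means on the log2 scale and symbols mark the replicate. ‘Manatee’ replicate 2 (square) is the highest ‘Manatee’ library for the WAT1-related gene and the gene described as cytochrome P450 76C1. It is the lowest in all other panels.

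Other genes of this group served membranes, signalling and hormones. The phospholipase A2-alpha gene Lsat_1_v5_gn_7_57841, whose product releases fatty acids from phospholipids, had 1.49, 5.35 and 4.69 CPM in ‘Okeechobee’, 9.49, 7.24 and 11.5 CPM in ‘Manatee’ and 27.0, 27.8 and 22.5 CPM in 60184, with no overlap at either step. The receptor-like kinase PXL1 gene Lsat_1_v5_gn_8_2560 had 2.02, 2.64 and 3.15 CPM in ‘Okeechobee’, 14.0, 5.02 and 8.92 CPM in ‘Manatee’ and 25.5, 23.5 and 28.8 CPM in 60184, also with no overlap. Both stayed stepwise without ‘Manatee’ replicate 2.

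Lsat_1_v5_gn_3_96420, described as cytochrome P450 85A1 (CYP85A1), matched Arabidopsis brassinosteroid-6-oxidase 2, of the last steps of brassinosteroid synthesis. It had 0.596, 1.11 and 2.61 CPM in ‘Okeechobee’, 11.5, 1.27 and 9.90 CPM in ‘Manatee’ and 22.6, 16.2 and 14.1 CPM in 60184. Without ‘Manatee’ replicate 2, which was at the ‘Okeechobee’ level, its drop from 60184 to ‘Manatee’ was 0.67 (-0.67 for ‘Manatee’ minus 60184) and the gene no longer met the rule. The interaptin-like gene Lsat_1_v5_gn_9_48141 had 7.64, 0.904 and 2.32 CPM in ‘Okeechobee’, 11.6, 4.68 and 6.89 CPM in ‘Manatee’ and 20.0, 16.7 and 18.1 CPM in 60184. Its ‘Okeechobee’ and ‘Manatee’ ranges overlapped.

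Antenna genes gave 5 of the 101, out of 21 antenna genes considered. All 21 were lower in ‘Manatee’ than in 60184 by at least 0.8, but only 5 were lower in ‘Okeechobee’ than in ‘Manatee’ by as much. The LHCB1 gene Lsat_1_v5_gn_1_95341, for the major antenna protein of photosystem II, had 58.0, 104 and 191 CPM in ‘Okeechobee’, 575, 62.0 and 476 CPM in ‘Manatee’ and 2439, 1122 and 1117 CPM in 60184. ‘Manatee’ replicate 2 was at the low end of ‘Okeechobee’, and 60184 replicate 1 was well above the other 60184 libraries.

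The antenna gene Lsat_1_v5_gn_5_6741, described as chlorophyll a-b binding protein 13, had 143, 267 and 592 CPM in ‘Okeechobee’, 1180, 289 and 849 CPM in ‘Manatee’ and 3768, 1376 and 1489 CPM in 60184. The LHCB1 genes Lsat_1_v5_gn_4_28880 and Lsat_1_v5_gn_4_28820 stand near each other on chromosome 4, with 2 genes between them in the order of gene IDs. Lsat_1_v5_gn_4_28880 had 161, 304 and 481 CPM in ‘Okeechobee’, 836, 197 and 808 CPM in ‘Manatee’ and 2219, 1435 and 1432 CPM in 60184. In both of these genes with values ‘Manatee’ replicate 2 lay inside the ‘Okeechobee’ range.

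The remaining antenna gene, Lsat_1_v5_gn_5_144981, is named although the rule for named genes left it out. It had 13.9, 23.5 and 55.1 CPM in ‘Okeechobee’, 129, 30.8 and 82.3 CPM in ‘Manatee’ and 229, 153 and 114 CPM in 60184. LHCB1 genes are near-identical copies, and only uniquely mapped reads were counted, so the split of reads between copies is uncertain.

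‘Manatee’ replicate 2 was the lowest ‘Manatee’ library in all 21 antenna genes. Without it 14 of the 21 were lower in ‘Okeechobee’ than in ‘Manatee’ by at least 0.8, and 13 met the stepwise rule, 4 of them among the 5 named here. The summed level of the 24 antenna genes with a description was 3988 to 8257 CPM in ‘Okeechobee’, 10866, 4412 and 9438 CPM in ‘Manatee’ replicates 1, 2 and 3, and 18780 to 40107 CPM in 60184. With all libraries, each of the 21 antenna genes considered had its ‘Manatee’ mean between the other means. The size of their step from ‘Manatee’ to ‘Okeechobee’ depended on replicate 2, the only ‘Manatee’ library whose summed level lay inside the ‘Okeechobee’ range.

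**Figure D4:**
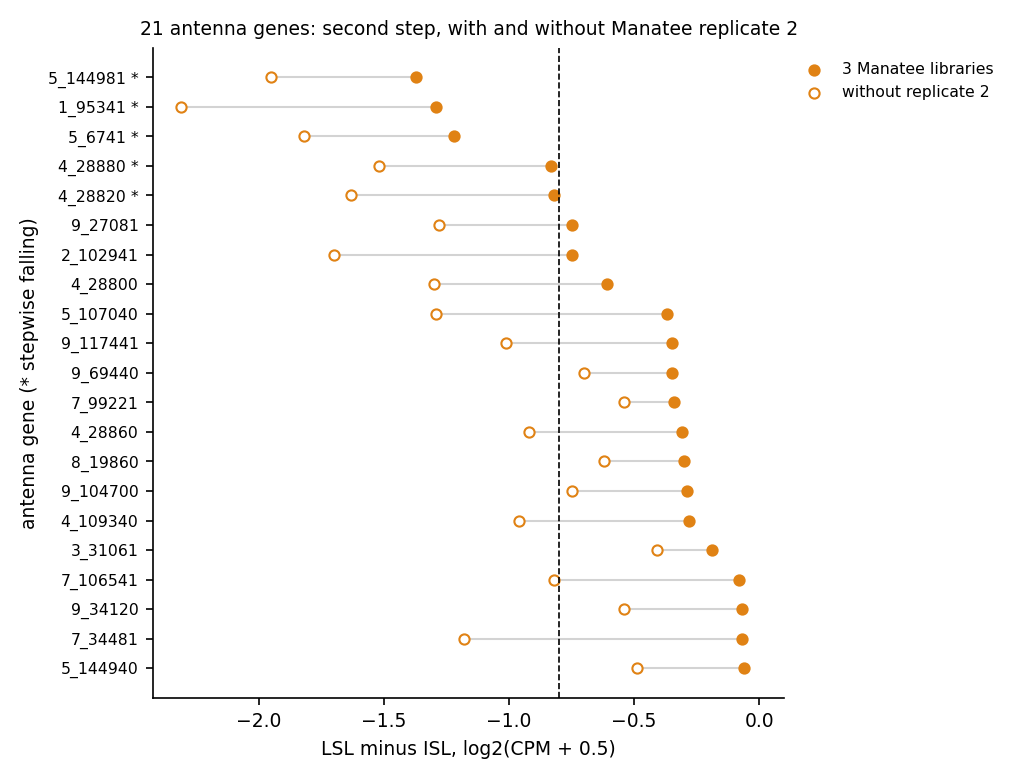
Difference between ‘Okeechobee’ and ‘Manatee’ on log2(CPM + 0.5) for the 21 antenna genes considered, with all 3 ‘Manatee’ libraries (filled) and without replicate 2 (open); the dashed line marks a drop of 0.8 and asterisks the stepwise genes. Left of the line lie 5 genes with all libraries and 14 without replicate 2.

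Of the 24 tested antenna genes, edgeR called 24 lower in ‘Okeechobee’ than in 60184 and 19 lower in ‘Manatee’ than in 60184, with median log2 fold changes of -2.82 and -2.30 against 0.01 and -0.01 for all tested genes. In the test of ‘Okeechobee’ against ‘Manatee’ edgeR called 0 of 24, with 2 lower at an unadjusted p under 0.05, and DESeq2 called 1. Genes called lower made up 15.3%, 8.60% and 3.74% of all tested genes in these comparisons. Those called higher made up 16.2%, 10.3% and 4.54%, and no antenna gene was among the genes called higher.

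The small subunit gene of Rubisco, Lsat_1_v5_gn_2_79501, was the 1 stepwise gene of 31 photosystem and Rubisco genes considered. It had 60.3, 126 and 65.9 CPM in ‘Okeechobee’, 320, 181 and 368 CPM in ‘Manatee’ and 952, 569 and 542 CPM in 60184. Its genotypes did not overlap at either step, and it stayed stepwise without ‘Manatee’ replicate 2. Of the 33 tested genes of this group, 27 were called lower in ‘Okeechobee’ than in 60184 and 29 lower in ‘Manatee’ than in 60184, and 2 were called higher in each of these comparisons. Of 32 tested 2 were called lower in ‘Okeechobee’ than in ‘Manatee’. Lower calls made up 15.3%, 8.60% and 3.74% of all tested genes in these comparisons, and higher calls 16.2%, 10.3% and 4.54%. The rule was met by 5 genes of this group without ‘Manatee’ replicate 2.

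The regulators of greening among the 101 genes were GLK1 and a GATA factor. GLK1 (Lsat_1_v5_gn_4_65921), which activates nuclear photosynthesis genes in Arabidopsis, had 18.8, 20.3 and 22.6 CPM in ‘Okeechobee’, 68.8, 33.7 and 51.6 CPM in ‘Manatee’ and 113, 97.0 and 106 CPM in 60184. Its differences were -1.08 for ‘Manatee’ against 60184 and -1.25 for ‘Okeechobee’ against ‘Manatee’. No library of one genotype entered the range of another, and the gene stayed stepwise without ‘Manatee’ replicate 2.

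GATA21 (Lsat_1_v5_gn_7_37240), a cytokinin-responsive factor that promotes chlorophyll synthesis in Arabidopsis, had 3.94, 5.32 and 2.78 CPM in ‘Okeechobee’, 24.4, 12.6 and 20.3 CPM in ‘Manatee’ and 26.6, 35.3 and 36.8 CPM in 60184. Its steps were unequal, -0.80 and -2.11, and it no longer met the rule without ‘Manatee’ replicate 2. The other 10 of the 12 genes for chlorophyll synthesis and its regulators were not stepwise. In ‘Okeechobee’ against 60184, 8 of the 12 were called lower and 1 higher, against 15.3% and 16.2% of all tested genes.

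GLK1 and a NAC gene were also targets of RT-qPCR in the study. Their primers, shown because they identify these transcripts, are given 5′ to 3′ in lower case.
GLK1 forward: ccatctccttcaccatcttg
GLK1 reverse: ccaatgccggagtctattt
NAM forward: gaaccaggaagaagagaaagag
NAM reverse: gtctcacggcaaccataaa
They are 19 to 22 bases long with 45.5% to 50% G and C, both genes lie on chromosome 4 by their IDs, and the qPCR values were not analysed here.

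The NAC gene (NAM, Lsat_1_v5_gn_4_1821), matched to Arabidopsis NAC083, which restrains leaf senescence there, had 39.5, 27.6 and 30.2 CPM in ‘Okeechobee’, 83.4, 48.6 and 67.1 CPM in ‘Manatee’ and 167, 110 and 120 CPM in 60184. The genotypes did not overlap, with steps of -1.0 and -1.01, and without ‘Manatee’ replicate 2 it did not meet the rule. It was 1 of 14 NAC genes considered. Of the 17 tested, 4 were called lower and 10 higher in ‘Okeechobee’ than in 60184, against 15.3% and 16.2% of all tested genes. The name NAC83 is given in the paper to a different lettuce gene, which it reports as higher in ‘Okeechobee’ than in 60184 by RNA-seq and RT-qPCR.

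Light signalling gave 6 of the 101 out of 28 genes considered, 4 of them NPH3-family genes. NPH3 proteins act with the phototropin blue light receptors. Lsat_1_v5_gn_9_13500 had 81.8, 68.6 and 82.0 CPM in ‘Okeechobee’, 187, 117 and 128 CPM in ‘Manatee’ and 350, 262 and 256 CPM in 60184, with no overlap at either step, and it alone of the 6 stayed stepwise without ‘Manatee’ replicate 2.

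The NPH3-family gene Lsat_1_v5_gn_4_104861, described as root phototropism protein 3, had 2.02, 11.4 and 11.9 CPM in ‘Okeechobee’, 23.2, 7.83 and 29.9 CPM in ‘Manatee’ and 33.9, 41.6 and 38.9 CPM in 60184. Lsat_1_v5_gn_2_83740, of the same family, had 29.3, 44.1 and 28.5 CPM in ‘Okeechobee’, 110, 31.7 and 85 CPM in ‘Manatee’ and 119, 119 and 125 CPM in 60184. ‘Manatee’ replicates 1 and 3 were near 60184 in this gene, and replicate 2 was within ‘Okeechobee’.

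CONSTANS-like 2 (Lsat_1_v5_gn_2_86121), of the B-box family that includes regulators of flowering by day length, had 52.0, 50.5 and 44.1 CPM in ‘Okeechobee’, 108, 70.5 and 89.0 CPM in ‘Manatee’ and 211, 135 and 139 CPM in 60184. Its genotypes did not overlap, and its steps of -0.85 and -0.84 were near the threshold. Of 28 tested light signalling genes, 20 were called lower and 4 higher in ‘Okeechobee’ than in 60184. In ‘Manatee’ against 60184, 14 were called lower and 4 higher. In ‘Okeechobee’ against ‘Manatee’, 6 were called lower and 0 higher by edgeR, with 1 higher at an unadjusted p under 0.05 and 1 by DESeq2. Lower and higher calls made up 15.3% and 16.2%, 8.60% and 10.3%, and 3.74% and 4.54% of all tested genes in these comparisons.

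Nitrogen uptake and assimilation gave 3 of the 101 out of 8 genes considered, with 1 gene each for ammonium uptake, nitrate reduction and nitrite reduction. The ammonium transporter 1 gene Lsat_1_v5_gn_9_19241 had 2.61, 5.07 and 2.12 CPM in ‘Okeechobee’, 37.4, 11.7 and 28.2 CPM in ‘Manatee’ and 75.9, 56.8 and 60.4 CPM in 60184. Its difference of -4.17 between ‘Okeechobee’ and 60184 came with no overlap at either step, and it stayed stepwise without ‘Manatee’ replicate 2.

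Nitrate reductase (Lsat_1_v5_gn_8_106740) had 93.1, 101 and 42.5 CPM in ‘Okeechobee’, 177, 293 and 149 CPM in ‘Manatee’ and 588, 311 and 568 CPM in 60184. Ferredoxin-nitrite reductase (Lsat_1_v5_gn_7_86981) had 12, 14.7 and 14.0 CPM in ‘Okeechobee’, 25.3, 36.0 and 21.2 CPM in ‘Manatee’ and 89.2, 45.5 and 95.2 CPM in 60184. In both genes the genotypes did not overlap, ‘Manatee’ replicate 2 was the highest ‘Manatee’ library and 60184 replicate 2 the lowest 60184 library. Nitrate reductase still met the rule without ‘Manatee’ replicate 2, while nitrite reductase did not, with -0.76 for ‘Okeechobee’ against ‘Manatee’. Of the 9 tested nitrogen genes, 6 were called lower and 3 higher in ‘Okeechobee’ than in 60184, against 15.3% and 16.2% of all tested genes. The 3 higher genes were ammonium transporter 2 (Lsat_1_v5_gn_5_149621, difference 1.57), high-affinity nitrate transporter 3.1 (Lsat_1_v5_gn_4_3961, 2.02) and NRT1/PTR family 7.3 (Lsat_1_v5_gn_1_83321, 3.13). A second nitrite reductase gene, Lsat_1_v5_gn_7_86961, differed by -1.67 for ‘Manatee’ against 60184 and by 0.49 for ‘Okeechobee’ against ‘Manatee’.

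Nitrate and nitrite reductase belonged to a minority of 11 genes in which ‘Manatee’ replicate 2 was the highest ‘Manatee’ library, the reverse of the 89. In 9 of these 11 genes 60184 replicate 2 was the lowest 60184 library, against 22 of the 89, and in 8 of the 11 ‘Okeechobee’ replicate 3 was the lowest ‘Okeechobee’ library, against 15 of the 89. Over all genes considered, 60184 replicate 2 was the lowest in 16.9% and ‘Okeechobee’ replicate 3 in 29.5%. These shares were not counted among the 3955 genes considered that also had ‘Manatee’ replicate 2 highest, so the pattern may not be particular to the 11. The split of the 101 genes by ‘Manatee’ replicate 2 was made after their values were seen, and the remaining 1 of the 101 had its ‘Manatee’ replicate 2 between the others.

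The WAT1-related gene Lsat_1_v5_gn_8_159641, of a family named after an auxin transporter of the vacuole in Arabidopsis, had 15.5, 12.7 and 5.35 CPM in ‘Okeechobee’, 23.5, 51.6 and 18.3 CPM in ‘Manatee’ and 89.5, 50.1 and 85.7 CPM in 60184. The cytochrome P450 76C1 gene Lsat_1_v5_gn_6_89780 had 4.27, 2.43 and 1.08 CPM in ‘Okeechobee’, 9.49, 11.8 and 7.84 CPM in ‘Manatee’ and 27.6, 21.8 and 22.7 CPM in 60184. Both followed nitrate reductase in having ‘Manatee’ replicate 2 highest and 60184 replicate 2 and ‘Okeechobee’ replicate 3 lowest in their genotypes. RAD-like 6 (Lsat_1_v5_gn_3_76680), a short MYB-related protein, was also among the 11, with 7.08, 5.42 and 5.10 CPM in ‘Okeechobee’, 10.8, 13.2 and 8.85 CPM in ‘Manatee’ and 17.1, 24.2 and 18.0 CPM in 60184, and there 60184 replicate 2 was the highest.

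Among transcription factors, the AP2/ERF family gave 5 of the 101 out of 49 genes considered, and 4 of the 5 stayed stepwise without ‘Manatee’ replicate 2. ERF5 (Lsat_1_v5_gn_2_128021) had 56.9, 30.3 and 84.4 CPM in ‘Okeechobee’, 241, 105 and 210 CPM in ‘Manatee’ and 466, 489 and 364 CPM in 60184. ERF9 (Lsat_1_v5_gn_7_22540) had 55.0, 32.9 and 51.5 CPM in ‘Okeechobee’, 206, 103 and 170 CPM in ‘Manatee’ and 400, 295 and 323 CPM in 60184. Neither gene had an overlap between genotypes.

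The dehydration-responsive element-binding gene Lsat_1_v5_gn_1_46781 had 1.49, 4.59 and 3.77 CPM in ‘Okeechobee’, 13.1, 3.19 and 10.4 CPM in ‘Manatee’ and 17.1, 29.2 and 23.9 CPM in 60184, with ‘Manatee’ replicate 2 inside ‘Okeechobee’. The fifth, Lsat_1_v5_gn_7_104600, matched to the repressor ERF4, was left out by the rule for named genes and was the 1 that no longer met the stepwise rule without that library. Of 57 tested AP2/ERF genes, 27 were called lower and 16 higher in ‘Okeechobee’ than in 60184. In ‘Okeechobee’ against ‘Manatee’, 14 were called lower and 4 higher, with a median log2 fold change of -0.76 against 0.02 for all tested genes. ‘Manatee’ against 60184 had more higher calls, with 11 lower and 22 higher of 53 tested and a median of -0.07 against -0.01. Lower and higher calls made up 15.3% and 16.2%, 3.74% and 4.54%, and 8.60% and 10.3% of all tested genes, in the same order of comparisons.

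Both stepwise WRKY genes, of 20 considered, matched Arabidopsis WRKY11, a negative regulator of defence against bacteria. Lsat_1_v5_gn_7_55280 had 37.2, 27.2 and 50.9 CPM in ‘Okeechobee’, 145, 64.7 and 141 CPM in ‘Manatee’ and 239, 247 and 224 CPM in 60184, with no overlap. Lsat_1_v5_gn_5_84140 had 3.47, 2.75 and 1.78 CPM in ‘Okeechobee’, 7.52, 3.31 and 6.40 CPM in ‘Manatee’ and 17.1, 15.5 and 15.2 CPM in 60184. Of the 22 tested WRKY genes with a description, 8 were called lower and 13 higher in ‘Okeechobee’ than in 60184. Over all tested genes, lower and higher calls made up 15.3% and 16.2%. Descriptions mostly cover genes that the study chose, so this split does not describe the whole family. Without ‘Manatee’ replicate 2, Lsat_1_v5_gn_5_84140 stayed stepwise and Lsat_1_v5_gn_7_55280 did not.

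Growth regulators of the TCP, GRF, SPL and BEL1 families gave 3 of the 101 out of 28 considered. BEL1-like homeodomain 4 (Lsat_1_v5_gn_3_93460), which shapes the leaf margin in Arabidopsis, had 25.1, 27.2 and 27.3 CPM in ‘Okeechobee’, 79.0, 43.8 and 73.4 CPM in ‘Manatee’ and 113, 136 and 129 CPM in 60184, with no overlap. TCP9 (Lsat_1_v5_gn_7_6960) averaged 2.29 ± 0.982 CPM in ‘Okeechobee’, 6.25 ± 4.21 CPM in ‘Manatee’ and 13.6 ± 1.54 CPM in 60184 (SD, n = 3 each). TCP7 (Lsat_1_v5_gn_4_64660) averaged 4.55 ± 2.19 CPM in ‘Okeechobee’, 8.51 ± 3.43 CPM in ‘Manatee’ and 22.5 ± 2.87 CPM in 60184 (SD, n = 3 each). The ‘Manatee’ values of both class I TCP genes, a class linked to cell proliferation, overlapped those of ‘Okeechobee’ through replicate 2. Only TCP7 of these 3 genes stayed stepwise without that library.

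Among bHLH factors, 3 of 22 were stepwise. ICE1 (Lsat_1_v5_gn_0_22701, on no placed chromosome), which acts in the stomatal lineage and in the cold response of Arabidopsis, had 8.60, 9.84 and 13.0 CPM in ‘Okeechobee’, 30.9, 10.4 and 25 CPM in ‘Manatee’ and 57.7, 68.8 and 67.5 CPM in 60184. bHLH63 (Lsat_1_v5_gn_7_91021), a partner of cryptochrome in Arabidopsis, had 2.48, 5.11 and 4.85 CPM in ‘Okeechobee’, 14.3, 5.05 and 9.21 CPM in ‘Manatee’ and 22.7, 16.8 and 17.4 CPM in 60184. ‘Manatee’ replicate 2 was within the ‘Okeechobee’ range in both, and the bHLH gene Lsat_1_v5_gn_6_58420 had steps of -0.95 and -0.95. Only ICE1 of these 3 genes stayed stepwise without ‘Manatee’ replicate 2.

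EPFL9 (Lsat_1_v5_gn_9_16040), the stomagen peptide that raises stomatal density in Arabidopsis and is made in the mesophyll, had 1.13, 3.55 and 3.82 CPM in ‘Okeechobee’, 7.25, 2.45 and 8.69 CPM in ‘Manatee’ and 7.92, 15.2 and 10.9 CPM in 60184. With ICE1 it was 1 of 2 stepwise genes in a list of 4 described guard cell and stomatal genes, whose summed level was 18.4 to 30.3 CPM in ‘Okeechobee’, 53.6, 18.5 and 48.6 CPM in ‘Manatee’ and 93.7 to 117 CPM in 60184. This sum includes ICE1 and EPFL9, which were chosen for falling. EPFL9 did not meet the rule without ‘Manatee’ replicate 2, with -0.44 for ‘Manatee’ against 60184. The other 2 genes of the list, given after their values were seen, differed by -1.20 (Lsat_1_v5_gn_1_32261, related to ICE1) and -1.50 (Lsat_1_v5_gn_4_18921, an aspartic protease of guard cells) for ‘Manatee’ against 60184 and by 0.40 and -0.54 in the same genes for ‘Okeechobee’ against ‘Manatee’. SPCH, MUTE, FAMA, TMM, HT1 and SLAC1 were not found among the descriptions and were not analysed here.

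The 32 epidermis and cuticle genes summed to 2469 to 2914 CPM in ‘Okeechobee’, 1701 to 2137 CPM in ‘Manatee’ and 2944 to 3830 CPM in 60184, the 16 vascular genes to 358 to 385, 372 to 497 and 476 to 509 CPM, and the 29 cell division genes to 446 to 481, 445 to 459 and 388 to 421 CPM in the same genotypes. No vascular or cell division gene was among the 101, and the 1 from the epidermis list was the cytokinin response factor given above, which carries the family name SHINE in 1 description. The part of cell type makeup in the differences was not tested.

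Besides CYP85A1, the hormone genes among the 101 included the ABA 8′-hydroxylase gene Lsat_1_v5_gn_8_73380, whose product breaks down abscisic acid. It had 10.1, 6.67 and 2.45 CPM in ‘Okeechobee’, 14.2, 7.21 and 12.6 CPM in ‘Manatee’ and 27.8, 28.0 and 23.9 CPM in 60184. It was the 1 stepwise gene of 10 abscisic acid genes considered. Of these 10, 5 were called lower in ‘Okeechobee’ than in 60184, against 15.3% of all tested genes, and 5 were not called. The brassinosteroid, gibberellin and auxin list held 1 stepwise gene of 43, and the cytokinin and two-component list held 2 of 15, CRF2 and GATA21.

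For sugars, the SWEET14 gene Lsat_1_v5_gn_4_82321, which encodes a membrane sugar exporter, was the 1 stepwise gene of 24. It had 10.4, 12.9 and 13.1 CPM in ‘Okeechobee’, 44.9, 16.4 and 27.9 CPM in ‘Manatee’ and 57.0, 77.0 and 77.6 CPM in 60184, with no overlap at either step. The ‘Manatee’ libraries were spread widely, from close to ‘Okeechobee’ to close to 60184.

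For the cell wall, 2 of 64 genes considered were stepwise. The TRICHOME BIREFRINGENCE-LIKE 33 gene Lsat_1_v5_gn_8_13020, for a protein that acetylates xylan in Arabidopsis, had 6.25, 4.21 and 5.64 CPM in ‘Okeechobee’, 17.7, 7.52 and 20.5 CPM in ‘Manatee’ and 34, 32.7 and 32.7 CPM in 60184, with no overlap. The polygalacturonase Lsat_1_v5_gn_5_70600, of the enzymes that cut pectin, had 2.25, 1.22 and 3.07 CPM in ‘Okeechobee’, 7.52, 2.11 and 5.13 CPM in ‘Manatee’ and 19.2, 14.7 and 12.3 CPM in 60184. Only the polygalacturonase stayed stepwise without ‘Manatee’ replicate 2.

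Receptor-like kinases gave 6 of the 101 out of 122 genes considered, and 1 of the 6, PXL1, stayed without ‘Manatee’ replicate 2. Lsat_1_v5_gn_3_85401, a leucine-rich repeat kinase, had 11.6, 17.0 and 29.4 CPM in ‘Okeechobee’, 62.7, 21.2 and 46.1 CPM in ‘Manatee’ and 72.9, 85.6 and 75.2 CPM in 60184. Lsat_1_v5_gn_4_76040 and Lsat_1_v5_gn_3_65021 had overall differences of -1.78 and -1.79. Of the 164 tested receptor-like kinase genes with a description, 43 were called lower and 115 higher in ‘Okeechobee’ than in 60184. Over all tested genes, such calls made up 15.3% and 16.2%. In this list 13 genes rose stepwise. The descriptions mostly cover genes that the study chose from these samples, so the split does not describe the whole family.

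Stress-related genes included the plastid chaperone gene dnaJ 11 (Lsat_1_v5_gn_3_72820), with 18.3, 5.80 and 6.26 CPM in ‘Okeechobee’, 23.5, 12.4 and 17.9 CPM in ‘Manatee’ and 59.4, 34 and 39.0 CPM in 60184. The heat stress transcription factor C-1 gene Lsat_1_v5_gn_5_103200 had 4.80, 3.96 and 3.36 CPM in ‘Okeechobee’, 11.9, 5.85 and 9.87 CPM in ‘Manatee’ and 12.5, 18.5 and 21.8 CPM in 60184. With RAD-like 6, which entered through a family name, these were the 3 stepwise genes of 45 DnaJ and heat shock genes. ‘Okeechobee’ replicate 1 overlapped ‘Manatee’ in the first of these genes, and the second had no overlap. Only dnaJ 11 of the 3 stayed stepwise without ‘Manatee’ replicate 2.

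Of 8 senescence-named genes considered, 1 was stepwise. Lsat_1_v5_gn_7_15820, of the DUF584 family of senescence regulators, had 6.02, 8.45 and 6.43 CPM in ‘Okeechobee’, 31.3, 9.60 and 26.2 CPM in ‘Manatee’ and 46.4, 38.9 and 40.2 CPM in 60184. Its genotypes did not overlap, but without ‘Manatee’ replicate 2 it did not meet the rule. None of 4 clock genes, 8 aquaporins and 67 NBS-LRR disease resistance genes considered was stepwise, while 7 NBS-LRR genes rose stepwise.

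At the threshold, GATA21 was just inside the step from 60184 to ‘Manatee’ with -0.805, and Lsat_1_v5_gn_2_96420, an unnamed expressed protein, with -0.818. Just outside were Lsat_1_v5_gn_9_28901 with -0.798 and the exocyst gene Lsat_1_v5_gn_5_167281 with -0.796. At the step from ‘Manatee’ to ‘Okeechobee’, the LHCB1 gene Lsat_1_v5_gn_4_28820 was just inside with -0.822 and Lsat_1_v5_gn_3_140620 with -0.823, and Lsat_1_v5_gn_6_52801 and the nucleotide transporter gene Lsat_1_v5_gn_4_114461 were just outside with -0.795 and -0.789. The exocyst gene had 24.1, 23.9 and 51.1 CPM in ‘Okeechobee’, 196, 96.8 and 186 CPM in ‘Manatee’ and 275, 255 and 264 CPM in 60184, a wider overall difference than most members. The list is thus bounded by small differences in ‘Manatee’.

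The 101 genes were spread over all 9 chromosomes. Their share of the genes considered was 0.302% on chromosome 6 at the lowest and 0.833%, or 14 genes, on chromosome 7 at the highest, and 2 genes lay on unplaced sequence. In 5 pairs, fewer than 10 genes stood between both members in the order of gene IDs, among them the LHCB1 pair on chromosome 4, ERF9 with Lsat_1_v5_gn_7_22701 and phospholipase A2-alpha with the DUF1677 gene. Chromosomes were read from the gene IDs, and where a description named a RefSeq gene of the Salinas v11 assembly, 65 of 76 lay on the chromosome of that gene.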

How the data were processed

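The 9 libraries are poly(A) RNA-seq of leaves. According to the methods, the authors used Cutadapt for trimming and STAR for mapping to the Lactuca sativa v5 genome, removed PCR duplicates, and took uniquely mapped reads per gene with HTSeq and SAMtools; strand use was not given in the sources used here. The deposited values are raw counts per gene. Rows for reads outside genes, ambiguous or not unique made up 9.98% to 20.4% of a library and were left out.

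Genotypes came from the sample titles. CPM used total gene counts. Each pair of genotypes was tested on its 6 libraries with edgeR 4.0.16 (R 4.3.3; at least 10 counts in at least 3 libraries, TMM, robust quasi-likelihood F test, Benjamini-Hochberg adjustment, called at an adjusted p under 0.05) and with DESeq2 1.42.0 as an alternative. The scripts were tested on simulated data. The genes and the 26 gene lists, defined by words in the descriptions, were chosen with earlier results of these data known. Genes named are the 12 described members with the largest smaller step, up to 4 members per list with the highest mean CPM, members that the paper names, and genes at the threshold; exceptions are stated. Alternatives were other scalings, pseudocounts, count minimums, steps and overlap conditions, a replicate block, a joint model of all 9 libraries, and each replicate left out. Promoters, proteins and gene coordinates were not analysed here, and the authors’ fold changes and p-values were not used.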

Additional observations from a re-analysis of the deposited data

How the results depend on the processing

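The number of stepwise genes was 216 with steps of at least 0.6, 50 with steps of at least 1 and 45 with no overlap at either step. It was 110 with TMM library sizes, 109 with DESeq2 size factors, 70 with a pseudocount of 2, 115 and 72 with count minimums of 10 and 100, and 75 to 139 with 1 library left out, where 46 (without ‘Manatee’ replicate 2) to 98 of the 101 genes remained. Without ‘Manatee’ replicate 1, 75 genes met the rule and 57 of the 101 remained. Over all tested genes, 6969 were called in ‘Okeechobee’ against 60184 (4073 to 6858 with 1 library left out, with 4073 and 4360 without 60184 replicates 2 and 3). In ‘Manatee’ against 60184 they were 4176 (1232 to 4381, with 2655 without ‘Manatee’ replicate 3 and 1481, 1232 and 1389 without 60184 replicates 1, 2 and 3). In ‘Okeechobee’ against ‘Manatee’ they were 1817 (430 to 2152, with 945, 557 and 905 without ‘Okeechobee’ replicates 1, 2 and 3 and 516 and 430 without ‘Manatee’ replicates 1 and 3). The last count was 3654 with DESeq2 and 3129 with all 9 libraries in 1 model. With the replicate number as a block the counts were 5886, 2320 and 596. Correlations of deviations between same-numbered libraries were -0.38 to 0.36 over the 9 pairs. Between libraries of different numbers they were -0.52 to 0.57. With 3 libraries a genotype these values cannot decide whether the numbers paired the samples. Of the 101 genes, 29 were called lower in ‘Okeechobee’ than in ‘Manatee’ by edgeR, 67 by DESeq2, 52 with all 9 libraries in 1 model, 12 with the block and 55 without ‘Manatee’ replicate 2, an alternative added after the data were seen. Of the 49 named genes, 27 stayed stepwise without ‘Manatee’ replicate 2, and the drop of Lsat_1_v5_gn_4_28820 between ‘Okeechobee’ and ‘Manatee’, -0.82 with all libraries, was -1.63 without that library and -0.29 without ‘Manatee’ replicate 1. With 3 libraries a genotype, 1 library sets much of a mean, and 29 of the 101 genes had a mean under 100 counts in at least 1 genotype.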
